A study of Oncorhynchus mykiss with 12 samples.

Results

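The hemoglobin and erythrocyte genes of rainbow trout (Oncorhynchus mykiss) dorsal skin were 58 of the 42290 rows of an RNA-Seq expression table. Of these, 46 had a description beginning with hemoglobin, and 12 had a symbol of a red cell gene, namely slc4a1, alas2, gata1, epb41, hemgn or rhag, with or without an a or b copy ending. No row had the symbols epb42 or klf1, which the same rule would have admitted, and zgc:163057 entered both by its symbol and by its description, hemoglobin subunit alpha-D. The study compared wild-type fish with yellow mutant fish, both described as the first generation of crosses between a wild-type male parent and a yellow mutant female parent. Each genotype was represented by 3 long-RNA libraries and 3 small-RNA libraries, 12 samples in all, and no drug, diet or time point separates the groups. The labels name neither the allele behind the yellow colour nor the age of the fish, and do not say whether a sample is 1 fish or a pool. The p-values below therefore reflect the spread among these particular samples, part of which may be technical.

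Hemoglobin carries oxygen as a tetramer of alpha-type and beta-type globin chains, each holding a heme group. Teleost genomes keep many alpha and beta genes side by side in the same clusters, and different members serve embryos and adults. Fish red cells keep their nucleus, and skin is supplied by blood vessels, so bulk RNA of skin also holds transcripts of red cells. In bulk samples, fewer red cells and less globin RNA per cell cannot be told apart.

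Levels are FPKM, in which fragments are divided by transcript length and by the mapped fragments of the library, so that genes can be compared. The FPKM values of a library summed to between 396278 and 428561, with 34837 to 35705 rows above 0. Absolute depth is unknown, but low values gave a depth relative to the first wild-type library of 0.942 and 0.903 in the other wild-type libraries and of 1.01, 0.581 and 0.81 in yellow mutant libraries 1, 2 and 3, so yellow mutant library 2 was the shallowest. How reads shared by near-identical copies were divided is not stated, and trout hemoglobin genes are a family of such copies, so the value of a single copy is less certain than a sum over copies.

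Hemoglobin RNA was detected in every library of trout skin, and all 10 members named embryonic were listed at 0. Of the 58 rows, 33 were above 0 in at least 1 library and 25 were listed at 0 in all 6. A level of at least 1 FPKM was reached in some library by 28 rows, 20 of them hemoglobins, and in every library by 23. Among alpha-type rows 10 of 14 reached 1 FPKM, among beta-type rows 9 of 21, and among the 10 rows described as embryonic alpha subunits none was above 0. The single alpha-D row reached 1 FPKM in 1 library. Outside the hemoglobins, 6 of 9 rows for membrane proteins, the alas2 row and the hemgn row reached this level.

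The expressed hemoglobin genes lay together. In the gene order of assembly USDA_OmykA_1.1, used here for names and neighbours only, the 46 rows formed 3 clusters on separate chromosomes, with 29, 11 and 6 rows. In the first cluster, places 1 to 13 all reached 1 FPKM and places 14 to 29, which hold 16 rows and 8 of the embryonic names, were all listed at 0. In the second cluster, places 1 to 6 reached 1 FPKM, and from place 7 to place 11 the only value above 0 was 0.08 FPKM at place 9 in yellow mutant library 1. The third cluster held the alpha-D row at place 1, the beta-type row hbb2 (gene 110499167) at place 2, and 4 rows listed at 0. The hbb2 row had 0.083, 0 and 0 FPKM in the wild-type libraries and 0.165, 0.143 and 0.206 in the yellow mutant libraries, below the level at which genes were tested. Among the rows of the rule in the first cluster, the border between rows above 0 and rows listed at 0 was at the same place in all 6 libraries.

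**Figure D1:**
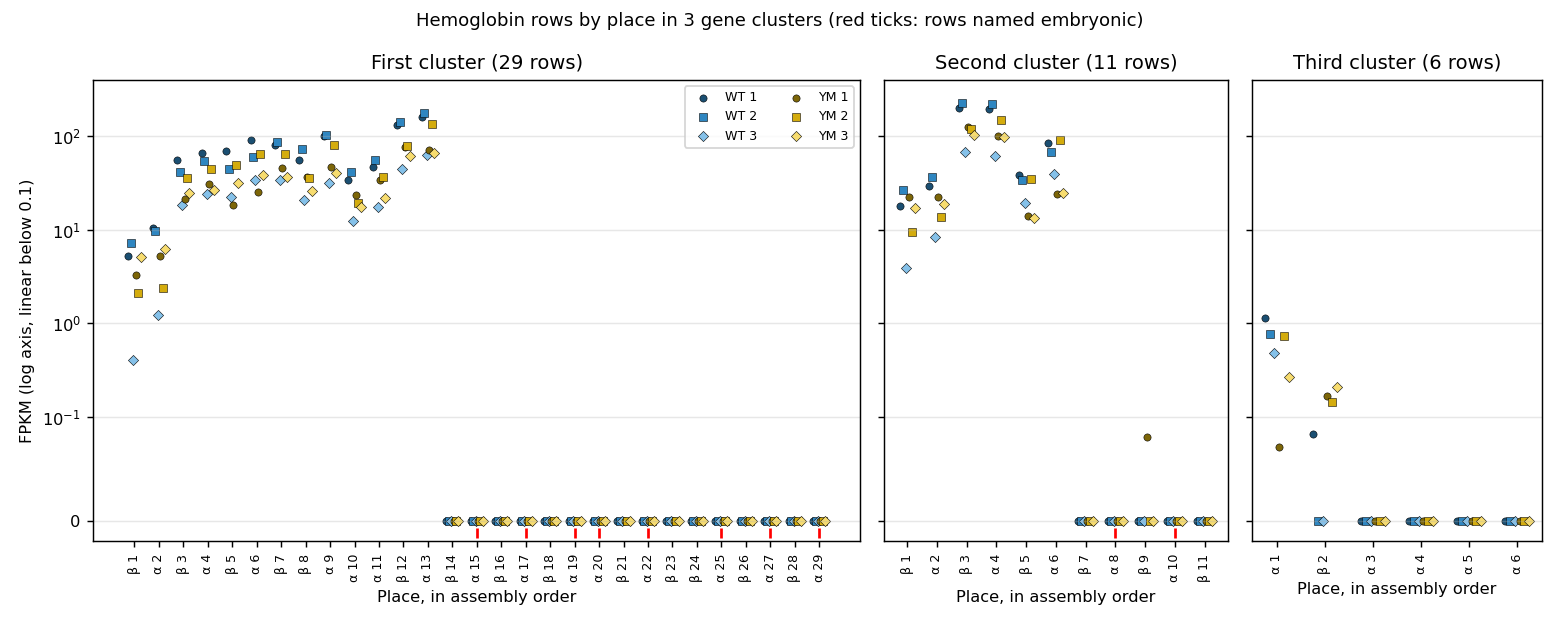
FPKM of each hemoglobin row (log axis, linear below 0.1) by its place in 3 gene clusters, with 1 point per library, blue for wild-type and yellow for yellow mutant, alpha-type and beta-type rows marked on the axis and embryonic names marked by red ticks. Places 1 to 13 of the first cluster and 1 to 6 of the second carry signal in every library, and all 10 members named embryonic lie at 0.

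The rule leaves out 5 globin rows whose descriptions begin with another word but which lie in or beside these clusters. A row described as alpha-globin I (gene 100136296) follows place 6 of the second cluster and had 371, 336 and 138 FPKM in the wild-type libraries and 133, 302 and 128 in the yellow mutant libraries, above every member. Beside it, a row described as beta-globin (gene 100136291) had 93.7, 115 and 54.3 FPKM against 70.0, 91.8 and 66.9. The other 3 are named embryonic globins, and a single value of 0.084 FPKM in wild-type library 1 was all they showed. That value belonged to a row after place 19 of the first cluster (gene 100135791), among the members listed at 0. With these 5 rows added, the hemoglobin sum described next kept a similar ratio between genotypes, 0.711.

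Summed hemoglobin differed more between libraries of a genotype than between genotypes. The 46 rows summed to 1472, 1504 and 525 FPKM in wild-type libraries 1, 2 and 3, and to 744, 1066 and 676 FPKM in yellow mutant libraries 1, 2 and 3. Wild-type libraries 1 and 2 stood above all yellow mutant libraries and wild-type library 3 below all of them, so the groups overlapped. The mean was 1167 ± 556 FPKM for the wild-type and 829 ± 208 FPKM for the yellow mutant (SD over 3 libraries each, n = 3), a ratio of 0.710 or a log2 ratio of -0.49. In size this ratio is smaller than the SD of the log2 sum within genotypes, pooled over both, 0.66. In FPKM, the means differed by less than the wild-type SD but by more than the yellow mutant SD. The highest library held 2.86 times the lowest. As a share of all FPKM, hemoglobin took 0.348, 0.380 and 0.128% in wild-type and 0.174, 0.249 and 0.158% in yellow mutant libraries. An exact permutation test of 3 against 3 libraries cannot go below p = 0.1, and none was run on this sum.

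Grouped by cluster or by symbol, the composition of the hemoglobin RNA was steadier than its amount. The neighbouring pairs described further below include copies whose share was less steady. Shares here are of the sum over the 46 rows, without the 5 globin rows outside the rule. On that sum, the first cluster gave 59.2 to 61.8% in wild-type and 58.7 to 60.8% in yellow mutant libraries. The second cluster gave nearly all of the rest. Alpha-globin I and beta-globin lie in the second cluster, and counting them would place it above the first in every library. Rows with the symbols hba4 and hbb4 made up 39.2 to 42.2% and 39.9 to 40.6%, and rows with hba1 and hbb1 27.6 to 30.9% and 28.1 to 32.1%, in wild-type and yellow mutant libraries respectively. Among these rows, the alpha-type to beta-type ratio was 1.25, 1.21 and 1.26 in wild-type libraries. It was 1.06, 1.48 and 1.12 in yellow mutant libraries, so the spread within the yellow mutant covered the wild-type values. Alpha-globin I and beta-globin carry the symbols hba4 and hbb4. Counting them would raise both the share of these symbols and the alpha-type to beta-type ratio in every library. The 6 most abundant of the 46 rows together took 57.6 to 63.4% of the sum.

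Alpha-type globins, the alpha chains of the tetramer, were led by copies of hba4. The row hba4 of place 4 in the second cluster (gene 110486353) had 196, 222 and 61.0 FPKM in the wild-type and 101, 149 and 98.0 FPKM in the yellow mutant libraries, and ranked 374 among all rows by mean level. Its wild-type libraries 1 and 2 were the highest of 6 and wild-type library 3 the lowest. The estimated difference, yellow mutant minus wild-type on the log2(FPKM + 1) scale, was -0.28 (SE 0.48, 95% interval -1.41 to 0.84, limma adjusted p = 0.966). At place 13 of the first cluster, another hba4 copy (gene 110538447) had 161, 176 and 63.3 FPKM against 71.4, 134 and 65.9 FPKM, again with the lowest value in wild-type library 3 and with overlapping groups. Its difference was -0.50 (SE 0.44, 95% interval -1.53 to 0.53, limma adjusted p = 0.926). An hba1 copy at place 9 of the first cluster (gene 110538448) had 101, 102 and 31.4 FPKM against 47.0, 80.1 and 39.8 FPKM, with the same order of libraries. Its difference was -0.37 (SE 0.49, 95% interval -1.52 to 0.78, limma adjusted p = 0.957).

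Among their partners in the tetramer, the beta-type globins, the 3 most abundant also had their lowest value in wild-type library 3. The most abundant member of all, hbb at place 3 of the second cluster (gene 110486352, rank 370 of all rows), had 202, 227 and 68.1 FPKM in the wild-type and 123, 119 and 102 FPKM in the yellow mutant libraries. All yellow mutant values lay between wild-type library 3 and the other wild-type libraries. Its difference was -0.35 (SE 0.43, 95% interval -1.36 to 0.66, limma adjusted p = 0.955). Next in level was hbb4 at place 12 of the first cluster (gene 110538443), at 132, 141 and 45.0 FPKM against 76.1, 79.0 and 61.7 FPKM, where the yellow mutant values again fell inside the wild-type range. It differed by -0.39 (SE 0.42, limma adjusted p = 0.940). The third, hbb1 at place 7 of the first cluster (gene 118936252), had 79.6, 85.4 and 33.6 FPKM against 45.2, 64.7 and 36.8 FPKM, and differed by -0.36 (SE 0.38, limma adjusted p = 0.940).

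In several neighbouring pairs of a beta-type and an alpha-type gene, both partners shared a pattern across libraries that differed from that of the sum. These pairs were picked after their values were seen, and are described without a test. Places 1 and 2 of the first cluster (hbb1 110538446 and hba 110538451) together took 1.06, 1.13 and 0.313% of the hemoglobin sum in wild-type libraries and 1.15, 0.421 and 1.66% in yellow mutant libraries. Places 1 and 2 of the second cluster (hbb1 110486350 and hba 110486351) took 3.19, 4.19 and 2.35% and 6.03, 2.16 and 5.31%. In both clusters, then, the first pair was low in wild-type library 3 and in yellow mutant library 2. The pair at places 5 and 6 of the second cluster (hbb1 100136207 and hba 110486354) ran the other way, with 8.28, 6.70 and 11.2% in wild-type and 5.12, 11.8 and 5.59% in yellow mutant libraries, high in the same libraries where the first pair was low. The corresponding pair in the first cluster (hbb1 100301726 and hba1 100136297) took 10.8, 6.91 and 10.7% and 5.87, 10.7 and 10.3%, low in wild-type library 2 and yellow mutant library 1. The abundant pair at places 12 and 13 of the first cluster (hbb4 110538443 and hba4 110538447) held between 18.9 and 21.1% in all 6 libraries. Its partners did not share a pattern. In yellow mutant library 2, hbb4 had its lowest share, 7.41%, and hba4 its highest, 12.5%. In yellow mutant library 1, hbb4 had its highest share, 10.2%, and hba4 its lowest, 9.60%.

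**Figure D2:**
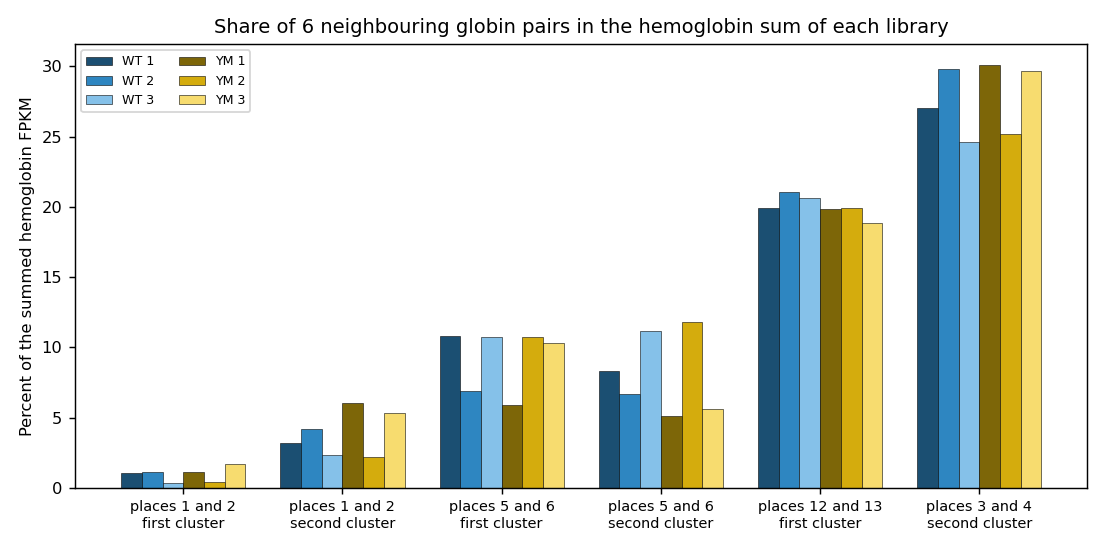
Percent of the summed hemoglobin FPKM taken by 6 neighbouring beta-alpha pairs, 1 bar per library, blue for wild-type and yellow for yellow mutant. The first pair of both clusters is low in wild-type library 3 and yellow mutant library 2, where places 5 and 6 of the second cluster reach 11.2 and 11.8%. Relative to its own level, the pair at places 12 and 13 varies least, between 18.9 and 21.1%, although its partners go in opposite directions in yellow mutant libraries 1 and 2.

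Some single copies stood apart, and those named here other than alpha-D were chosen after their values were seen. At place 1 of the first cluster, hbb1 (gene 110538446) had 5.18, 7.18 and 0.408 FPKM in the wild-type and 3.30, 2.09 and 5.06 FPKM in the yellow mutant libraries, the highest being 17.6 times the lowest. At place 6 of the second cluster, hba (gene 110486354) had 83.4, 66.7 and 39.3 FPKM against 24.1, 90.8 and 24.5 FPKM, the only 1 of the 20 tested hemoglobins with its highest value in a yellow mutant library. It had the largest negative difference of the tested members, -0.66, with the wide 95% interval of -1.94 to 0.62 (limma adjusted p = 0.922). At place 1 of the second cluster, hbb1 (gene 110486350) had 18, 26.8 and 3.90 FPKM against 22.5, 9.48 and 17.0 FPKM and the only mean among the 20 tested hemoglobins that was not lower in the yellow mutant, 16.4 ± 6.55 against 16.2 ± 11.5 FPKM. Alpha-D globin, an alpha-type chain known from birds and reptiles (zgc:163057, gene 100301693), was the least abundant hemoglobin tested, at 1.14, 0.757 and 0.474 FPKM against 0.071, 0.736 and 0.264 FPKM. Its difference of -0.41 (SE 0.22, 95% interval -0.91 to 0.09) had the smallest p of any member, 0.0923, and a limma adjusted p of 0.873.

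Heme synthesis and nuclear genes of the red cell lineage were present at low levels. The erythroid enzyme alas2 (gene 110532218), which starts heme synthesis in red cell precursors, had 4.55, 4.49 and 1.48 FPKM in the wild-type and 2.1, 3.99 and 1.60 FPKM in the yellow mutant libraries. As with most hemoglobins, wild-type library 3 was the lowest of 6 and yellow mutant library 2 the highest of its genotype. The difference was -0.30 (SE 0.37, limma adjusted p = 0.955). Hemogen (hemgn, gene 110497349), a nuclear protein of blood-forming cells, had 3.09, 1.13 and 1.24 FPKM against 0.783, 1.41 and 0.881 FPKM, with a high value in wild-type library 1 alone, and differed by -0.42 (SE 0.27, limma adjusted p = 0.897). The only row with the symbol GATA1, the master transcription factor of red cells, was listed at 0 in all 6 libraries. Its description reads GATA-binding factor 2-like (gene 118939467), so the symbol and the description disagree and the row gives no level for GATA1.

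Genes for red cell membrane proteins did not share 1 pattern. Both tested copies of slc4a1, named here after their values were seen, followed hemoglobin. This gene encodes band 3, which exchanges chloride for bicarbonate and anchors the membrane skeleton. The copy described as band 3 (gene 100136769) had 3.24, 3.10 and 1.09 FPKM in the wild-type and 1.5, 2.06 and 1.24 FPKM in the yellow mutant libraries, and the copy described as anion exchanger (gene 100136955) had 2.49, 3.06 and 0.92 FPKM against 1.37, 2.31 and 1.08 FPKM. In both, wild-type library 3 was lowest, at 0.344 and 0.332 times the mean of the other wild-type libraries, close to the median of 0.336 over the 20 hemoglobins. Their differences were -0.36 (SE 0.28) and -0.24 (SE 0.30), with limma adjusted p of 0.919 and 0.955. The Rh-associated glycoprotein rhag (gene 110529405), which lets ammonia cross the red cell membrane, had 14.4, 9.81 and 5.59 FPKM against 10.9, 14.1 and 30.1 FPKM, with its highest value in yellow mutant library 3. Like most hemoglobins, this row was lowest in wild-type library 3, at 0.46 times the mean of the other wild-type libraries. It was the only member outside the hemoglobins with a higher yellow mutant mean, and differed by 0.79 (SE 0.43, 95% interval -0.21 to 1.79, limma adjusted p = 0.878). A second copy, Rhag (gene 100136711), named after its values were seen, had 2.2, 1.52 and 0.912 FPKM against 1.96, 1.1 and 0.565 FPKM and differed by -0.22 (SE 0.27, limma adjusted p = 0.955).

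Protein 4.1, encoded by epb41, ties spectrin to actin under the membrane and is also made in many other cell types. The most abundant EPB41 row (gene 110510828, whose description gives no protein name) had 32.9, 57.1 and 25.9 FPKM in the wild-type and 15.7, 26.5 and 37.0 FPKM in the yellow mutant libraries, and differed by -0.53 (SE 0.37, limma adjusted p = 0.909). Its libraries were in another order than those of the hemoglobin sum, with yellow mutant library 1 the lowest, as in 4 of the 20 hemoglobins. Among the wild-type libraries, library 3 was still the lowest. A second EPB41 row (gene 110506699) also had a description without a protein name. It was nearly level, at 2.02, 2.57 and 2.15 FPKM against 1.82, 2.17 and 2.13 FPKM, and differed by -0.09 (SE 0.13, 95% interval -0.40 to 0.21, limma adjusted p = 0.959). Here wild-type library 3 stood at 0.936 times the mean of the other wild-type libraries, unlike the hemoglobins. The remaining rows of the group, EPB41 110489366, epb41a and slc4a1b, stayed below 0.6 FPKM in every library. Of these, epb41a (gene 110496712), singled out after its values were seen, is described as erythrocyte membrane protein band 4.1a. It had 0.113, 0.063 and 0.098 FPKM in the wild-type and 0 in each yellow mutant library, below the level at which genes were tested.

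**Figure D3:**
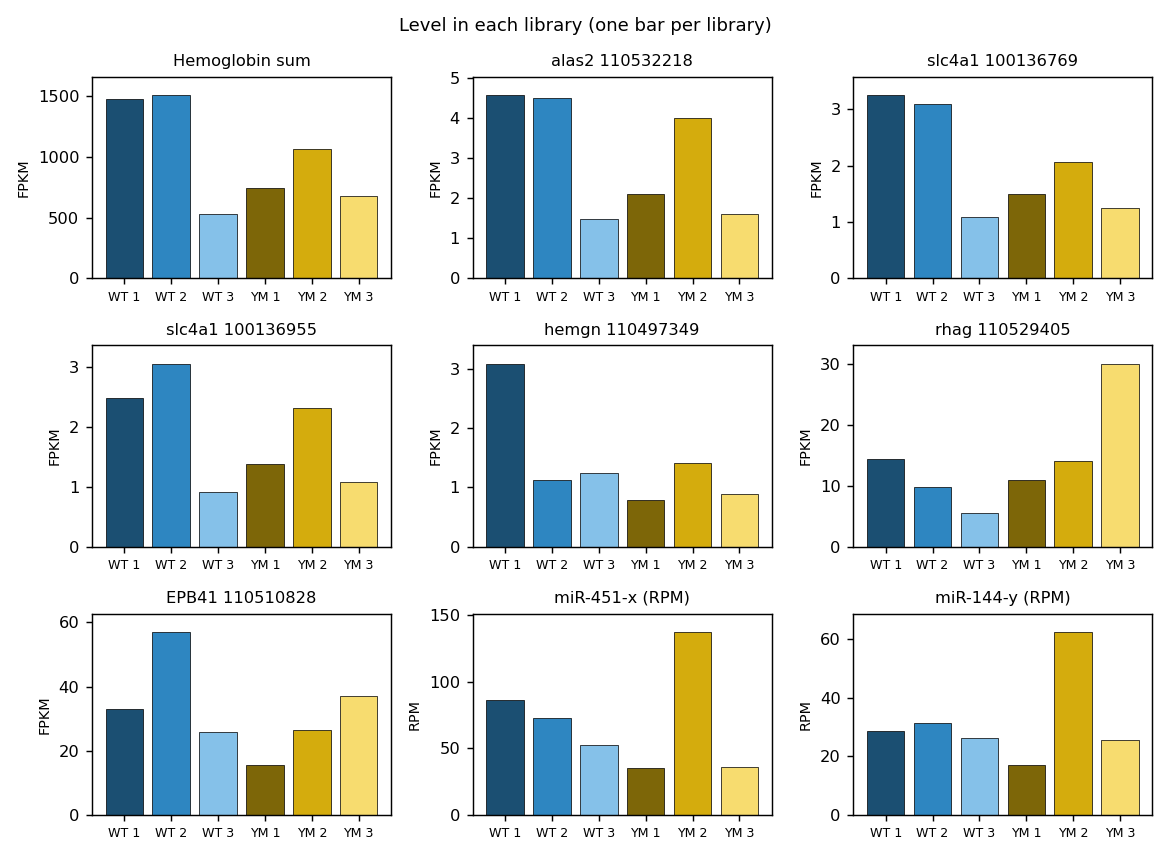
FPKM, or RPM for the miRNAs, in each library for the hemoglobin sum, 6 other red cell rows and 2 miRNAs, 1 bar per library, blue for wild-type and yellow for yellow mutant, with every axis starting at 0. Hemoglobin, alas2 and both tested slc4a1 copies share a low wild-type library 3 (525 FPKM for hemoglobin). In rhag, wild-type library 3 is also the lowest at 5.59 FPKM, while yellow mutant library 3 is the highest at 30.1 FPKM. For miR-451-x, wild-type library 3 is the lowest of its genotype and yellow mutant library 2 the highest of all at 137 RPM.

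No member passed the test between genotypes. Of the 58 rows, 28 passed the filter for low values (at least 0.5 FPKM in at least 3 of 6 libraries), and the 30 others were 25 rows at 0 and 5 at low levels. With limma on log2(FPKM + 1) and an adjusted p under 0.05, 0 of 28 members were called, against 9 of 27268 genes tested, or 0.033%. At an unadjusted p under 0.05 the members also gave 0, where 2.59% of all genes were lower and 3.41% higher in the yellow mutant, and the authors' deposited table gave 0 members an FDR under 0.05, beside 138 of all 42290 rows, or 0.326%. Member p-values ran from 0.0923 to 0.932, with limma adjusted p from 0.873 to 0.998. No tested member had every yellow mutant library below or every one above the wild-type libraries, a separation seen downward in 4.92% and upward in 6.07% of all genes tested.

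The estimates nevertheless lay mostly on 1 side of zero. The log2 difference was below 0 in 25 of 28 members, where 47.0% of all genes tested were below 0. The median was -0.36 over the members, -0.38 over the 20 hemoglobins and -0.27 over the 8 others, beside 0.01 over all genes tested. The members share their libraries, and hemoglobin copies may share reads, so they are not independent of each other. The intervals were wide, and together they reached from -1.94 to 1.90.

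**Figure D4:**
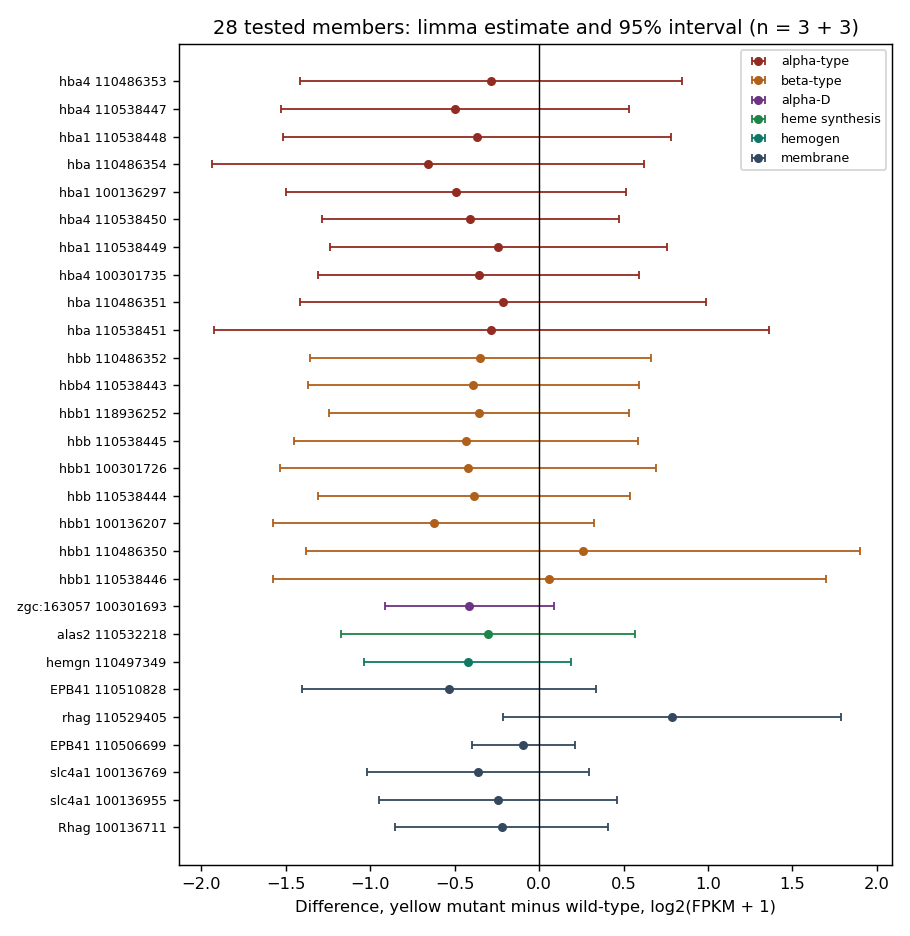
Difference in log2(FPKM + 1), yellow mutant minus wild-type, for the 28 tested members, as limma estimates (points) with 95% intervals (bars), ordered by role and level. All intervals cross 0, 25 of 28 estimates lie below it, and rhag has the highest estimate at 0.79.

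The distance between the genotypes depended on wild-type library 3. It was the lowest wild-type library in 20 of 20 hemoglobins and in 26 of the 28 tested members, and across the hemoglobins it held 0.066 to 0.535 times the mean of the other wild-type libraries. Without it, the median member difference was -0.82 and the log2 ratio of the hemoglobin sum -0.84. In that fit 18 of 28 members, or 64.3%, 15 of them hemoglobins, were lower at an unadjusted p under 0.05, where 3.16% of all genes were. Their differences ran from -1.05 to -0.55, and none was called, with limma adjusted p from 0.457 to 0.661. Leaving out the library that was the lowest wild-type library in most members raises their wild-type means together. The members also share their libraries, so these 18 are not independent results. Without wild-type library 1 or 2, the median was -0.13 or -0.11 and the log2 ratio of the sum -0.29 or -0.27. The libraries' labels give no ground to set wild-type library 3 aside. Its relative depth was 0.903, beside 0.942 in wild-type library 2, and the cause of its low hemoglobin was not tested.

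Among the yellow mutant libraries, library 2 was the highest in 18 of 28 members. Over the 20 hemoglobins it held a median of 1.53 times the mean of yellow mutant libraries 1 and 3, with 15 above and 5 below a ratio of 1. Without it the median member difference was -0.49, and 3 members were lower at an unadjusted p under 0.05, where 2.92% of all genes were. These were hba 110486354 at -1.28, hbb1 100136207 at -1.05 and zgc:163057 at -0.61, with limma adjusted p from 0.488 to 0.614. The first and second of these are neighbours at places 6 and 5 of the second cluster.

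Markers of blood vessels also had lower estimates in the yellow mutant. Of 47 tested rows of an endothelial list, 44 had a difference below 0, where 47.0% of all genes tested did. At an unadjusted p under 0.05, 12 were lower and 1 higher, where 2.59 and 3.41% of all genes were, and none passed the adjusted threshold. The median difference of the list was -0.35. Their summed level was 246, 308 and 210 FPKM in the wild-type and 240, 177 and 168 FPKM in the yellow mutant libraries, and 0 of 51 listed rows were at 0 in all libraries. The claudin CLDN5 (gene 110509625), a tight junction protein of vessel walls, had the smallest p of the list, with 5.51 ± 1.93 FPKM in the wild-type against 1.91 ± 0.469 FPKM (SD, n = 3 each, limma adjusted p = 0.440). Wild-type library 3 was the lowest wild-type library for this sum as for hemoglobin, while yellow mutant library 2, highest of its genotype in hemoglobin, was not the highest here. Thrombocyte markers had a median of 0.01 over 14 rows, with sums from 137 to 164 FPKM. Leukocyte markers had a median of 0.13 over 40 rows, and sums of 571 to 650 FPKM in wild-type and 686 to 743 FPKM in yellow mutant libraries. Keratinocyte and skeletal muscle markers had medians of 0.21 over 68 and 0.22 over 90 rows, and the muscle sum ranged from 3232 to 11527 FPKM between libraries. Melanophore markers had a median of 0.65, and 21 of 34 rows were higher at an unadjusted p under 0.05, as were 3.41% of all genes. The part of these cell types in the hemoglobin values was not tested.

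In lists of other genes of red cell biology, estimates were divided between both sides of 0 and no row passed the adjusted threshold. How much of this RNA came from red cells was not tested, and the sums of the lists did not all follow hemoglobin. In wild-type library 3 the sum was the highest of its genotype for membrane skeleton and regulator rows. It was the lowest of its genotype for iron handling and enzyme rows, and neither for heme synthesis rows. Of 29 heme synthesis rows beside alas2, 11 were below and 18 above 0, with a median of 0.04. ALAD (gene 110509774), the enzyme after the synthase in this pathway, had 6.27 ± 0.786 FPKM in the wild-type against 8.48 ± 1.26 FPKM (limma adjusted p = 0.821). Of 39 iron handling rows, 17 were below and 22 above 0, with a median of 0.09. The iron exporter ferroportin, slc40a1 (gene 110501553), had 6.45 ± 0.944 against 10.8 ± 1.17 FPKM (limma adjusted p = 0.465). The plasma iron carrier transferrin (tfa, gene 100136298) had 274, 112 and 48.2 FPKM in the wild-type and 69.8, 39.6 and 55.8 FPKM in the yellow mutant libraries, so its groups overlapped.

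The membrane skeleton list, without the members, had 19 rows below and 18 above 0 and a median of -0.01. Its smallest p belonged to DMTN (gene 110523820), dematin, which bundles actin, at 2.55 ± 0.188 FPKM in the wild-type against 4.93 ± 0.920 FPKM (limma adjusted p = 0.353). Among 41 erythroid regulator rows 14 were below and 27 above 0, with a median of 0.09. There gata2 (gene 110527950), a transcription factor of early blood cells that is also made in other tissues, had 2.40 ± 0.469 against 3.62 ± 0.172 FPKM (limma adjusted p = 0.733). Red cell enzymes and antioxidants were split 17 to 17, with a median of 0.01, and the smallest p was that of thioredoxin (txn, gene 110531622), at 143 ± 34.9 against 77.6 ± 33.8 FPKM (limma adjusted p = 0.769). Of 4 tested globin rows that do not belong to red cells, 3 were above 0. The most abundant, cytoglobin cygb2 (gene 110486554), had 28.5, 31.4 and 22.1 FPKM in the wild-type and 52.1, 21 and 51.5 FPKM in the yellow mutant libraries, with yellow mutant library 2 the lowest of 6.

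The small-RNA libraries gave a readout of red cells outside the FPKM table. In zebrafish and mammals, miR-451 and miR-144 are the miRNAs typical of red cells and are made from neighbouring hairpins, and miR-451 is unusual in being cut by Argonaute 2 rather than Dicer. The deposited miRNA table held 4 such entries, whose endings x and y are not explained in the sources used here. Their sequences are shown because they identify the entries behind the values that follow. They are given 5′ to 3′ as deposited, in DNA letters, with the seed (bases 2 to 8) in capitals.
miR-451-x: tAACCGTTaccattactgagttt
miR-451-y: tTTAGCAAtggtaagggttct
miR-144-x: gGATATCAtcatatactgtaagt
miR-144-y: cTACAGTAtagatgatgtact
None of the 4 seeds was shared with another of the 1279 entries.

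Levels of these miRNAs are RPM, in which reads are divided by the library total, from libraries with totals of 9095320 to 11502061 reads, so that 1 read was worth 0.0869 to 0.110 RPM. The entry miR-451-x had 85.8, 72.5 and 52.7 RPM in wild-type and 35.1, 137 and 35.9 RPM in yellow mutant libraries, with means of 70.3 ± 16.7 and 69.4 ± 58.7 RPM (SD, n = 3 each). Its yellow mutant library 2 was the highest of 6 and the other yellow mutant libraries the lowest, so the wild-type values lay inside the yellow mutant range. The difference was -0.30 on the log2(RPM + 1) scale (SE 0.49, 95% interval -1.38 to 0.78, limma adjusted p = 0.914). The entry miR-144-y had 28.8, 31.5 and 26.4 RPM against 17.1, 62.6 and 25.4 RPM, again highest in yellow mutant library 2, and differed by 0.07 (SE 0.42, limma adjusted p = 0.948). The entry miR-144-x had 4.81, 4.15 and 1.88 RPM against 1.74, 5.17 and 3.40 RPM, and differed by -0.07 (SE 0.38, limma adjusted p = 0.948). With at most 10 reads in any library, miR-451-y was too low to test.

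No difference between genotypes beyond the spread of the libraries was found for either miRNA. None of the 3 tested entries was called, nor was any of the 519 entries tested (0.0%), and at an unadjusted p under 0.05 the 3 entries gave 0 where 8.29% of all entries passed. Without yellow mutant library 2, miR-451-x differed by -0.94 (limma adjusted p = 0.256) and passed an unadjusted p under 0.05, as did 13.5% of all entries in that fit. Without yellow mutant library 1 or 3 its difference was 0.03 or 0.01. Yellow mutant library 2 was the highest of its genotype for miR-451-x, for miR-144-y and, in the long-RNA libraries, for the hemoglobin sum and alas2, and it was also the highest of its genotype for miR-144-x. Wild-type library 3, which held 0.353 times the hemoglobin of the mean of the other wild-type libraries, was the lowest wild-type library for all 3 tested entries, at 52.7 RPM of miR-451-x, 26.4 RPM of miR-144-y and 1.88 RPM of miR-144-x. The labels do not say whether small-RNA and long-RNA libraries with the same number came from the same sample.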

How the data were processed

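RNA-Seq values are FPKM made by the authors, in a deposited table that also holds their log2 fold change and an FDR, a form of adjusted p-value (no source used here names its test). The miRNA table holds RPM values that the authors deposited under the heading TPM, with their log2 fold change and p-value per the file headers, and marks entries without reads as 0.01, which was set to 0. Bowtie2 2.2.8 and TopHat2 2.1.1 appear per the submitters' processing notes without a role. The genome build and counting tool are not given in the sources.

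Members were found by description and symbol, and all 58 matched RefSeq identifiers of assembly USDA_OmykA_1.1. The members and gene lists were chosen with earlier results of these data known, and no list was given a test of its own. Per role, the 3 members of highest mean (if at least 1 FPKM) or the highest 1 were named, with any other named row marked or given for its place or spread, and per list the row of smallest p and that of highest mean were computed. Genotypes were compared with limma 3.58.1 in R 4.3.3 (trend and robust eBayes) on log2(FPKM + 1) for rows with at least 0.5 FPKM in at least 3 libraries, and on log2(RPM + 1) for entries with at least 1 RPM in at least 3. Fits were two-sided, adjusted by Benjamini-Hochberg over all features at 0.05, and checked on simulated data. A pseudocount of 1 understates changes of low genes. In the miRNA table, 100% of low values were whole multiples of 1 read within 0.1 read.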

Additional observations from a re-analysis of the deposited data

How the results depend on the processing

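No member was called under any of the alternatives run: a pseudocount of 0.1, no filter, a filter of 5 FPKM, median-of-ratios scaling, scaling to equal sums without the members, limma without trend or robust, a replicate block, and leaving out each library. Genes called over the whole table were 9, and 0 with the replicate block, and ranged from 0 to 14 when 1 library was left out. Members at an unadjusted p under 0.05 were 0. Without the filter they were 2 of 33, epb41a lower and hbb2 higher in the yellow mutant, both under 0.5 FPKM. In that fit, 1009 of all 38600 genes were lower and 1208 higher at that level. When 1 library was left out, members at that level numbered 0 to 18. The labels do not say whether same-numbered libraries of the genotypes belong together. Over all genes or entries tested, deviations of same-numbered libraries correlated at 0.12, -0.21 and 0.16 for RNA and 0.09, -0.12 and -0.06 for miRNA. With 3 libraries per genotype, these values cannot decide whether the libraries were paired. Each replicate number occurs once per genotype, so the block cannot change a difference, only its SE, and the member median stayed at -0.36. The SE of hba4 110538447 went from 0.44 to 0.26 and that of rhag 110529405 from 0.43 to 0.56. The member median lay between -0.42 and -0.35 in the settings that keep all libraries. It ranged from -0.82 to -0.11 when 1 library was left out, while the log2 ratio of the hemoglobin sum ranged from -0.84 to -0.27. Scaling to equal sums put the median of all genes at -0.03. miRNA entries called were 0, and 0 to 2 when 1 library was left out. The block, the filters and limma without trend or robust leave each difference as it was, so no sign could change there. Of 387 alternative values for 31 single genes and miRNAs, 369 kept their direction and side of the threshold and 18 changed sign, the cause of which was not tested. With all libraries kept, only miR-144-y did so, at -0.0457 under median-of-ratios scaling. When 1 library was left out, 10 did so: Rhag 100136711 from -0.457 to 0.0035, hbb1 110486350 from -0.48 to 0.77, hba 110486351 from -0.82 to 0.17, hba4 110486353 from -0.87 to 0.0525, hbb1 110538446 from -0.72 to 0.55, hba1 110538449 from -0.74 to 0.0749, hba 110538451 from -1.05 to 0.12, miR-144-x from -0.38 to 0.24, miR-144-y from -0.45 to 0.46 and miR-451-x from -0.94 to 0.029. Limits are the 3 libraries per genotype, the unknown absolute depth of the FPKM values, and reads that near-identical globin copies may share.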
